A study of Homo sapiens with 12 samples.

Results

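The 33 genes described here are targets of the transcription factor p53, followed over 12 libraries of HEK293T cells. This human line came from embryonic kidney and expresses large T antigen of the virus SV40. They were taken by name, as well-known members of the p53 programme, from 24395 gene-level features, of which 14613 passed a filter on low counts. All 33 were present and 32 passed the filter. SFN, which encodes the cell cycle inhibitor 14-3-3 sigma, did not.

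Polyadenylated RNA was sequenced from cells that had received plasmids for a catalytically dead Cas9 (dCas9) protein and for guide RNAs to 4 sites at IL1RN, a gene outside the p53 programme. The dCas9-p300 core group carried the catalytic part of p300, an acetyltransferase of histones and other proteins, and the dCas9-VP64 group carried a viral activation domain. The dCas9-p300 D1399Y group carried the core with a change that abolishes its acetyltransferase activity, and the dCas9 group carried the DNA-binding protein alone. Each group held 3 libraries. All 12 shared the cell line, the IL1RN guides and the lipid transfection, and no cells without large T antigen, without guides or with DNA damage were part of the comparison. The line is a single transformed line, and the RNA of large T antigen was not analysed here.

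The p53 protein binds DNA as a tetramer and activates genes for cell cycle arrest, apoptosis, DNA repair and metabolism, and it also activates MDM2, the ubiquitin ligase that marks p53 for degradation. SV40 large T antigen binds p53 and blocks its activity as a transcription factor. The acetyltransferases p300 and CBP are coactivators of p53 and also acetylate p53 itself. The comparisons ask whether RNA of the p53 targets differed when an acetyltransferase core, the same core without activity, or an activation domain was expressed in these cells while held at another gene.

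Sequences are shown for members whose promoter window holds a match to the p53 consensus, the sequence that p53 binds. RefSeq promoter windows of the GRCh38.p14 assembly, 250 bases before to 50 after an annotated start, were at hand for 28 of the 33 members (43 windows). The p53 consensus was searched as 2 copies of its 10-base unit with 0 or 1 bases between them. The unit is its own reverse complement, so both strands were covered. With at most 2 mismatches, a full site was in 4 of 28 members (14.3%), against 1.69% of the 27305 genes with a window and 1.34% of the 35116 windows. With at most 3 mismatches it was in 11 of 28 members (39.3%), against 11.9% of genes. A match of the full consensus was found in DDB2 alone among the members and in 0.0199% of all windows. A single exact unit was in 7 of 28 members, against 8.06% of genes and 6.63% of windows. A match describes the letters in these windows and does not show binding, and p53 sites of several members are known to lie outside such windows. The sites below are in capitals, all on the plus strand. For MDM2 the 250 bases before an internal start (chr12:68808767-68809016) are given, with the site 94 to 75 bases before that start. For AEN the 250 bases before its start (chr15:88621090-88621339) are given, with the site 34 to 15 bases before it. For FAS (chr10:88991309-88991328) and DDB2 (chr11:47214979-47214999) the site alone is given. The FAS site starts 122 bases before an annotated start, and the DDB2 site starts at position 6, with an annotated start as position 1.
MDM2: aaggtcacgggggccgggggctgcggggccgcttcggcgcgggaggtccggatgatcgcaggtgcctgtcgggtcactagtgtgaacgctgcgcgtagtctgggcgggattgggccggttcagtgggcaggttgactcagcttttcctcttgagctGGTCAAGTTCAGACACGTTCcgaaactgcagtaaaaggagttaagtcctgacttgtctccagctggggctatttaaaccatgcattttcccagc
AEN: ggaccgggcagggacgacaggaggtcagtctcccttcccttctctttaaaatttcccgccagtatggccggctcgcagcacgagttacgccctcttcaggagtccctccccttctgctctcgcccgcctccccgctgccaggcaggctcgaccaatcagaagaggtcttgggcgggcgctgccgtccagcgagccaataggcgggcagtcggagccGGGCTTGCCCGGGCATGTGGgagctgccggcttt
FAS: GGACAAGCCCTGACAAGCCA
DDB2: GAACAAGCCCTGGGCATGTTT

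The depth was between 2442960 counts (dCas9 replicate 3) and 5154627 counts (core replicate 2). IL1RN, the gene under the guides, averaged 83.3 ± 8.60 CPM (SD, n = 3), where CPM are counts relative to the TMM-scaled total of the library, with the core, 24.7 ± 6.04 CPM with VP64 and 7.76 ± 1.41 CPM with D1399Y, against 6.71 ± 2.49 CPM with dCas9. EP300, whose counts include the p300 core of the plasmids, averaged 391 ± 54.4 CPM with the core and 430 ± 38.7 CPM with D1399Y, against 107 ± 49.1 CPM with dCas9. Genes reported in HEK293 cells (PAX2, LHX1, NEFL and NEFM) summed to between 142 and 308 CPM. Of the markers of other cell types, THY1 (fibroblasts), CD3E (T cells), KRT5 and KRT14 (basal epithelium) were at 0 in all libraries. Other markers of the same kinds were detected. The epithelial markers summed to between 21.4 and 45.5 CPM and the blood markers to between 4.82 and 10.6 CPM. The fibroblast marker COL1A1 stood between 12.4 and 21.2 CPM. The 4 endothelial markers summed to between 9.24 and 11.5 CPM in core libraries and to between 1.91 and 4.60 CPM in the others. KDR had the most reads of the 4 over all libraries, and the part of these genes in the results below was not tested. Since the labels say only that cells were transfected in triplicate, each p-value rests on the spread of these samples alone, which may be technical. In bulk RNA, fewer cells expressing a gene and less RNA of it per cell cannot be told apart. Replicate 3 of both p300 groups came from the pool labelled CV42 and the other 10 libraries from CV41.

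No member differed in any of the 5 comparisons made, or among all 4 groups, at an adjusted p under 0.05 (edgeR quasi-likelihood test, adjusted by Benjamini-Hochberg over 14613 genes). The shares of all genes past that threshold were themselves near 0. They were 0.0% for VP64 over dCas9, 0.00684% for the core over dCas9, 0.0% for D1399Y over dCas9, 0.00684% for the core over D1399Y, 0.00684% for the core over VP64, and 0.0205% for any difference among the 4 groups. DESeq2 also placed 0 members past the threshold in each of these tests, where it called 0.00684%, 0.0274%, 0.00684%, 0.0274% and 0.0342% of all genes in the 5 comparisons, and 0.0616% in the test of any difference. limma-voom placed 0 members there too, with 0.0%, 0.0137%, 0.00684%, 0.00684%, 0.00684% and 0.0137% of all genes called. VP64 and D1399Y were not compared with each other. In the edgeR test the lowest adjusted p of any member was 0.633, reached in D1399Y over dCas9.

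The intervals bound what the data leave room for. The 95% interval of the fold change lay wholly within a 2-fold change for 28 of 32 members in VP64 over dCas9, for 29 in the core over dCas9, for 25 in D1399Y over dCas9, for 29 in the core over D1399Y and for 28 in the core over VP64. The widest intervals belonged to TP53I3, PHLDA3 and FDXR. For TP53I3 the interval for the core over VP64 ran from 0.267-fold to 1.14-fold. A difference of 2-fold or more is thus outside the interval for most members and inside it for a few that varied widely between replicates. An adjusted p that misses the threshold does not show that values were equal.

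**Figure D1:**
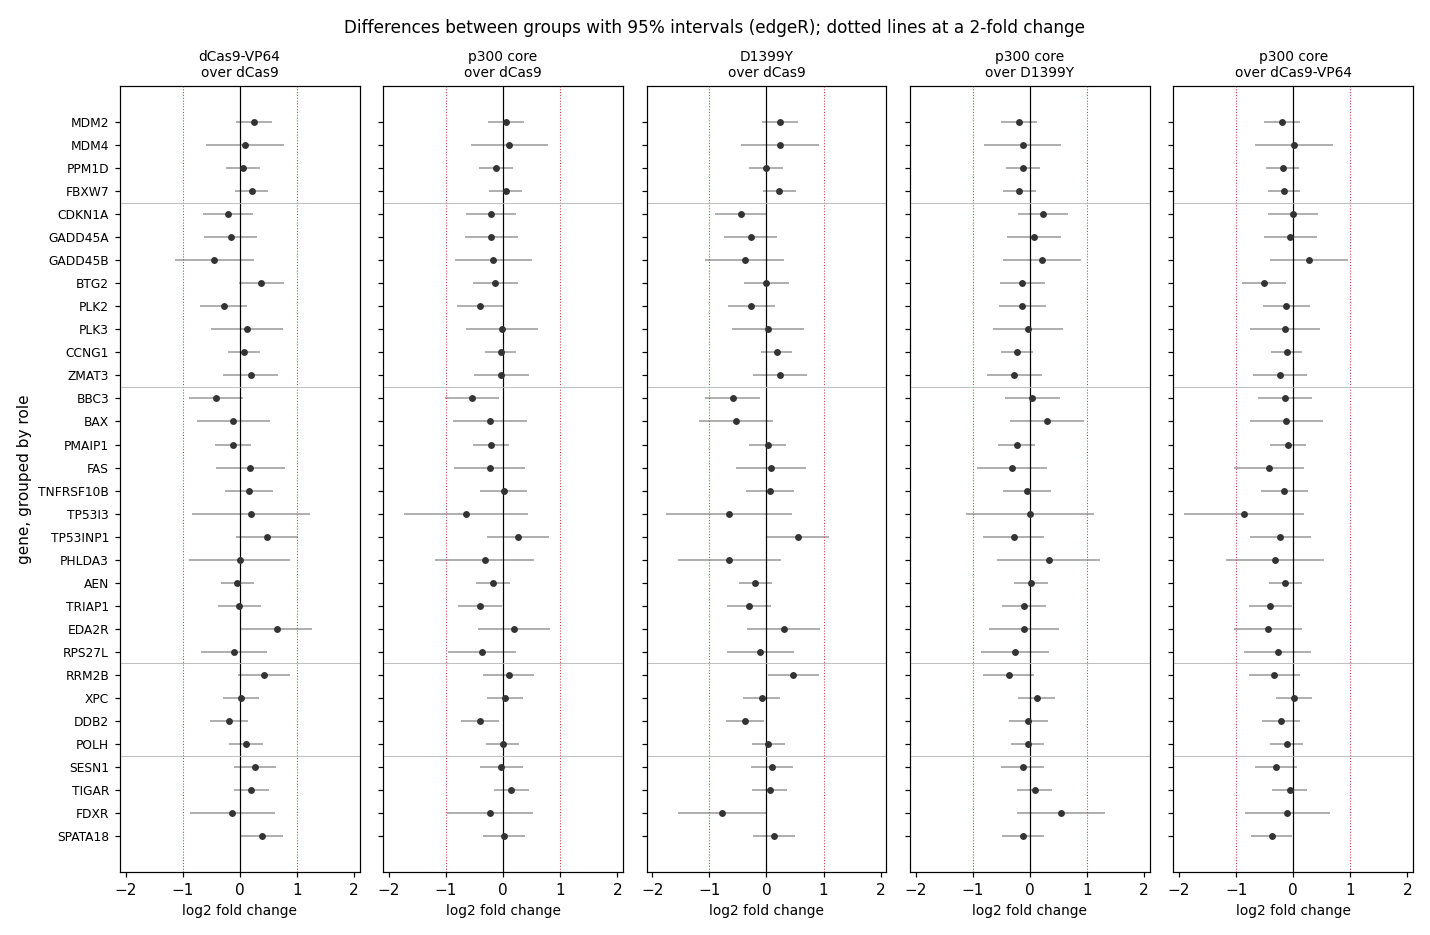
Log2 fold change (x axis) of 32 p53 target genes (y axis, ordered by role) in 5 comparisons, with edgeR 95% intervals as bars and dotted lines at a 2-fold change. In the core over VP64 panel 29 of 32 points lie left of 0, and no member passed the adjusted threshold in any panel.

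At an unadjusted p under 0.05, 2 of 32 members stood out in VP64 over dCas9, where 3.07% of all genes did. There were 3 in the core over dCas9 (3.11% of all genes), 6 in D1399Y over dCas9 (5.89%), 0 in the core over D1399Y (1.86%) and 3 in the core over VP64 (2.11%). In the test of any difference among the 4 groups there were 0 (1.85%). The median log2 fold change of the members was 0.08 in VP64 over dCas9, -0.13 in the core over dCas9 and 0.01 in D1399Y over dCas9. It was -0.10 in the core over D1399Y and -0.16 in the core over VP64. The median of all genes lay between -0.00 and 0.02 in these comparisons. In the core over VP64, 3 members had a higher value and 29 a lower one, while 49.5% of all genes had a higher value. These 5 comparisons share libraries and are not independent of each other.

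Groups that did not overlap were few. In the core over VP64, all 3 core libraries lay below all 3 VP64 libraries for 5 members, BTG2, TP53I3, PPM1D, DDB2 and SPATA18 (4.68% of all genes), and above them for 0 members (5.66%). In the core over D1399Y the core libraries were all lower for CCNG1, FBXW7 and RRM2B (4.52% of all genes) and all higher for 0 members (5.39%). D1399Y libraries all lay above dCas9 libraries for FBXW7 and RRM2B (3.45% of all genes) and below them for BBC3 (3.79%). Core libraries all lay below dCas9 libraries for PLK2 (3.05%) and above them for 0 members (3.87%). VP64 libraries all lay above dCas9 libraries for SPATA18 (3.18%) and below them for 0 members (2.74%).

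Of the feedback genes, MDM2, MDM4 and PPM1D act on p53 itself. MDM2 stood at 267, 219 and 234 CPM in the core libraries and at 323, 268 and 236 CPM in the VP64 libraries. It was at 256, 315 and 249 CPM in the D1399Y libraries, against 252, 234 and 211 CPM in the dCas9 libraries. All groups overlapped, with the highest level in VP64 replicate 1 and the lowest in dCas9 replicate 3. The fold change was 1.03 for the core over dCas9 (95% interval 0.829 to 1.29), 1.19 for VP64 over dCas9 (0.952 to 1.48) and 1.18 for D1399Y over dCas9 (0.943 to 1.46). The adjusted p of these was between 0.633 and 0.945 (edgeR). With offsets for transcript length and GC content, all of them turned to lower values, with log2 -0.42 for the core, -0.16 for VP64 and -0.32 for D1399Y over dCas9. The direction of MDM2 depended on that correction, for which it was given a mean transcript length of 12633 bases from GRCh38 annotation, an estimate that may not suit the transcripts expressed.

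MDM4, an MDM2 relative that binds and inhibits p53, is named for its spread, after its values were seen. Its levels were 60.2, 92.6 and 159 CPM in the core libraries and 85.4, 91.9 and 131 CPM in the VP64 libraries. They were 75.3, 135 and 130 CPM in the D1399Y libraries, against 96.1, 117 and 74.2 CPM in the dCas9 libraries. The lowest and the highest library of all 12 were both core libraries, so the group means of 104 ± 50.5 CPM with the core and 95.9 ± 21.6 CPM with dCas9 (SD, n = 3 each) rest on a wide spread. The core value over dCas9 was 1.08-fold (95% interval 0.674 to 1.73). In the CV41 libraries alone it was log2 -0.33, on the other side of 0 from the log2 0.11 of all libraries. PPM1D, the phosphatase WIP1 that removes activating phosphates from p53 and ATM, stood between 71.3 and 99.5 CPM. FBXW7, which encodes the substrate receptor of a ubiquitin ligase for cyclin E and MYC, stood between 58.7 and 81.9 CPM. The D1399Y libraries held 66.3, 81.9 and 65.6 CPM of FBXW7, all above the dCas9 libraries at 60.5, 63.2 and 58.7 CPM. That difference was 1.17-fold (95% interval 0.960 to 1.43, adjusted p = 0.633, edgeR). Its log2 value of 0.23 was 0.10 without D1399Y replicate 2 and turned to -0.03 with the length and GC offsets. The VP64 libraries held 70.8, 62.7 and 77.6 CPM of FBXW7, at a similar 1.16-fold over dCas9 (0.949 to 1.41), and overlapped the dCas9 libraries. The core libraries held 61.5, 64.3 and 62.1 CPM.

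**Figure D2:**
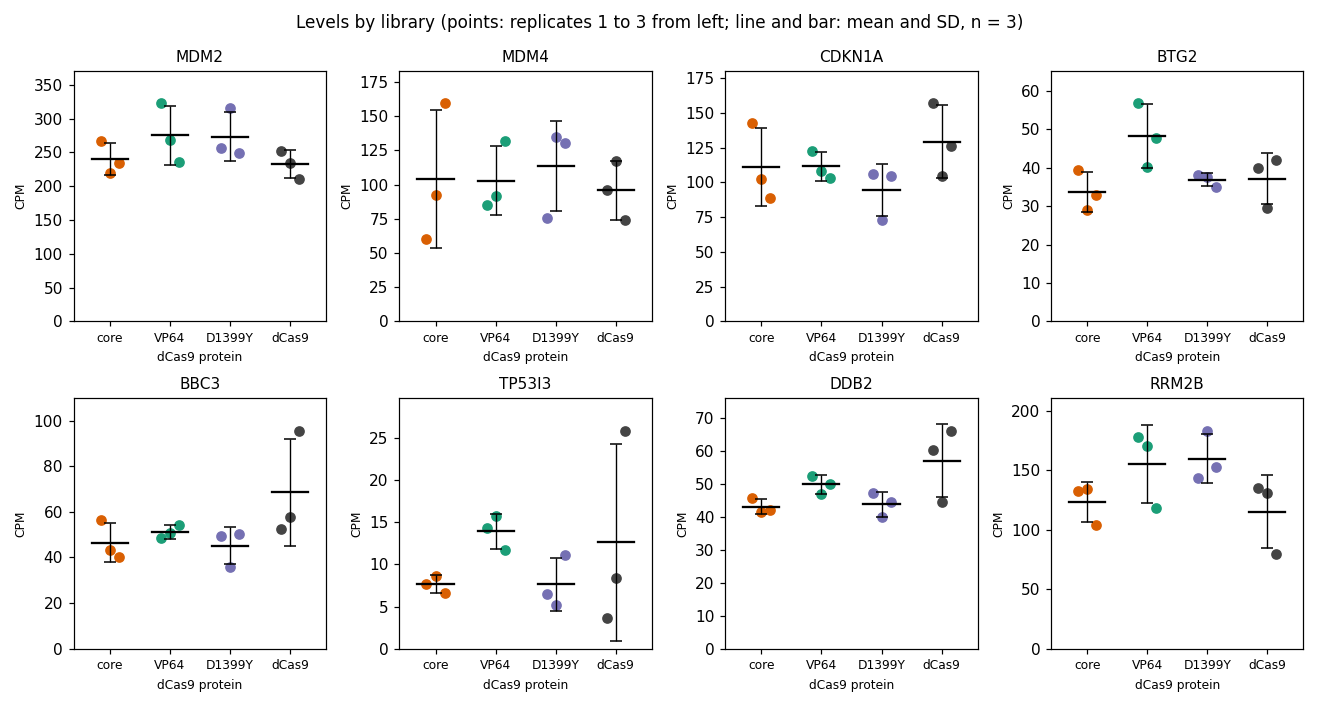
Level in CPM (y axis, from 0) of 8 members in each library, by dCas9 protein (x axis), with a line at the mean and a bar of 1 SD (n = 3). MDM4 spans 60.2 to 159 CPM within the core group, and the BBC3 mean of dCas9 is drawn up by its replicate 3 at 95.6 CPM.

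Among the arrest genes, CDKN1A encodes p21, the cyclin-dependent kinase inhibitor through which p53 stops the cell cycle. CDKN1A was at 143, 102 and 88.9 CPM in the core libraries and at 123, 109 and 103 CPM in the VP64 libraries. It was at 106, 72.7 and 105 CPM in the D1399Y libraries, against 157, 104 and 127 CPM in the dCas9 libraries. D1399Y replicate 2 held the lowest level and dCas9 replicate 1 the highest, and every pair of groups overlapped. D1399Y over dCas9 was 0.731-fold (95% interval 0.538 to 0.993; unadjusted p = 0.0455, adjusted p = 0.633, edgeR). The core over dCas9 was 0.861-fold (0.635 to 1.17), and VP64 over dCas9 was 0.863-fold (0.637 to 1.17). Without D1399Y replicate 2 the D1399Y value was log2 -0.31, and without dCas9 replicate 1 it was log2 -0.30, against log2 -0.45 with all libraries.

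BTG2, an antiproliferative protein that joins the CCR4-NOT deadenylase, had the smallest p of any member in any of the 5 comparisons. Its levels were 39.3, 29.1 and 32.8 CPM in the core libraries, against 56.7, 40.1 and 47.7 CPM in the VP64 libraries. D1399Y libraries held 38.2, 37.5 and 35.0 CPM, against 39.9, 29.6 and 42.1 CPM in dCas9 libraries. The VP64 libraries stood highest as a group, and the core libraries all lay below them. The core over VP64 was 0.699-fold (95% interval 0.535 to 0.913; log2 -0.52 ± 0.18), with an unadjusted p of 0.0124 and an adjusted p of 1.0 (edgeR). VP64 over dCas9 was 1.30-fold (0.995 to 1.70) and the core over dCas9 was 0.910-fold (0.692 to 1.20). In the CV41 libraries alone the core over VP64 stayed at log2 -0.50.

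CCNG1 encodes cyclin G1, which recruits a phosphatase to MDM2. Its levels were 342, 307 and 308 CPM in the core libraries and 386, 338 and 313 CPM in the VP64 libraries. D1399Y libraries gave 376, 390 and 352 CPM, against 377, 321 and 290 CPM in dCas9 libraries. The core libraries all lay below the D1399Y libraries, at 0.856-fold (95% interval 0.708 to 1.04, adjusted p = 1.0, edgeR). ZMAT3, a zinc finger protein that binds RNA, was at 219, 216 and 188 CPM with the core and at 295, 242 and 194 CPM with VP64. It was at 260, 304 and 189 CPM with D1399Y, against 260, 233 and 144 CPM with dCas9. Its groups all overlapped, and the lowest level was in dCas9 replicate 3. The core over dCas9 was 0.976-fold for ZMAT3 (0.700 to 1.36). Of the other arrest genes, the growth arrest gene GADD45A ran from 54.8 to 111 CPM and its relative GADD45B from 8.07 to 19.5 CPM. The polo-like kinase genes PLK2 and PLK3 ran from 24.8 to 45.8 CPM and from 6.20 to 13.2 CPM. PLK2 was at 27.5, 30.4 and 30.4 CPM in the core libraries, against 38.2, 33.1 and 45.8 CPM in the dCas9 libraries. The core libraries all lay lower, at log2 -0.40 ± 0.19 and an adjusted p of 0.879 (edgeR). Without dCas9 replicate 3 that value was log2 -0.27. The VP64 libraries held 34.7, 26.4 and 35.0 CPM of PLK2, and the D1399Y libraries held 38.4, 24.8 and 33.4 CPM. SFN had between 1 and 11 reads per library and was not tested. All 8 tested arrest genes had a value below 0 for the core over dCas9, as did 47.5% of all genes. Their median log2 there was -0.15, and 0 of them passed the threshold. Of the 8, 4 were below 0 for VP64 over dCas9 and 5 for D1399Y over dCas9. There were 5 below 0 for the core over D1399Y and 7 for the core over VP64.

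The apoptosis genes held the largest spread. BBC3 encodes PUMA, a BH3 protein that frees BAX to permeabilise mitochondria. Its levels were 56.2, 43.3 and 40.1 CPM in the core libraries and 48.5, 50.8 and 54.3 CPM in the VP64 libraries. They were 49.5, 35.8 and 50.2 CPM in the D1399Y libraries, against 52.6, 57.7 and 95.6 CPM in the dCas9 libraries. The D1399Y libraries all lay below the dCas9 libraries, of which replicate 3 stood far above the rest. D1399Y over dCas9 was 0.663-fold (95% interval 0.476 to 0.922; unadjusted p = 0.0183, adjusted p = 0.633, edgeR). The core over dCas9 was 0.682-fold (0.492 to 0.947; unadjusted p = 0.0255, adjusted p = 0.879). VP64 over dCas9 was also lower, at 0.751-fold (0.541 to 1.04). Without dCas9 replicate 3 the log2 values were -0.28 for D1399Y, -0.25 for the core and -0.11 for VP64. With all libraries they were -0.59, -0.55 and -0.41. Its transcripts have a GC content of 65.1%, the highest among the members, and the pattern of GC content in dCas9 replicate 3 is described below.

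TP53INP1, which encodes a stress protein that aids p53 phosphorylation, had the opposite placing. Its levels were 68.1, 66.4 and 51.4 CPM in the core libraries and 90.8, 70.3 and 56.3 CPM in the VP64 libraries. They were 77.7, 89.4 and 60.0 CPM in the D1399Y libraries, against 63.0, 60.3 and 30.6 CPM in the dCas9 libraries. dCas9 replicate 3 was the lowest of all 12, and D1399Y and dCas9 libraries overlapped. D1399Y over dCas9 was log2 0.55 ± 0.25 (unadjusted p = 0.0493, adjusted p = 0.633, edgeR), and without dCas9 replicate 3 it was log2 0.30. EDA2R, a death receptor of the TNF receptor family, was at 10.3, 14.1 and 10.8 CPM with the core and at 21.8, 14.2 and 12.2 CPM with VP64. It was at 11.9, 14.1 and 11.9 CPM with D1399Y, against 14.7, 8.82 and 7.01 CPM with dCas9. VP64 replicate 1 stood apart at the top, and the VP64 and dCas9 libraries overlapped. VP64 over dCas9 was 1.56-fold (95% interval 1.02 to 2.40; unadjusted p = 0.0424, adjusted p = 0.929, edgeR), and it was log2 0.36 without VP64 replicate 1 and log2 0.98 without dCas9 replicate 1, against log2 0.64 with all libraries.

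TRIAP1 encodes a small protein that supports mitochondrial lipid transfer and restrains apoptosome activity. Its levels were 80.0, 60.3 and 56.9 CPM in the core libraries and 94.3, 92.4 and 73.3 CPM in the VP64 libraries. They were 72.0, 68.3 and 71.7 CPM in the D1399Y libraries, against 83.7, 70.1 and 108 CPM in the dCas9 libraries. Core replicates 2 and 3 were the lowest of the 12, while core replicate 1 overlapped VP64 and dCas9. The core over dCas9 was 0.755-fold (95% interval 0.579 to 0.985; unadjusted p = 0.0400, adjusted p = 0.879, edgeR). Without dCas9 replicate 3 that value was log2 -0.23, against log2 -0.41 with it. The core over VP64 was 0.758-fold (0.582 to 0.988; unadjusted p = 0.0414, adjusted p = 1.0).

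PMAIP1, which encodes the BH3 protein NOXA, was at 146, 125 and 164 CPM in the core libraries and at 142, 165 and 156 CPM in the VP64 libraries. It was at 150, 204 and 157 CPM in the D1399Y libraries, against 179, 162 and 163 CPM in the dCas9 libraries. All groups overlapped, and the core over dCas9 was 0.863-fold (95% interval 0.692 to 1.08). TNFRSF10B, a death receptor for the ligand TRAIL, was at 234, 219 and 178 CPM with the core and at 253, 263 and 187 CPM with VP64. It was at 225, 225 and 203 CPM with D1399Y, against 250, 232 and 145 CPM with dCas9. The groups overlapped here too, and the core over dCas9 was 1.01-fold (0.753 to 1.34).

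The remaining apoptosis genes are given by their range. BAX, which forms the mitochondrial pore, ran from 52.7 to 119 CPM, and both ends lay in the core group. FAS, the receptor of FAS ligand, ran from 17.0 to 50.5 CPM. PHLDA3, an inhibitor of AKT signalling, ran from 7.21 to 29.9 CPM, with D1399Y replicate 2 lowest and dCas9 replicate 3 highest. AEN, a nuclease of apoptotic DNA breakdown, ran from 91.7 to 123 CPM. RPS27L, a ribosomal protein paralogue that counts of its close relative RPS27 could blur, ran from 8.13 to 19.2 CPM. TP53I3, a quinone oxidoreductase named after its values were seen, was at 7.66, 8.67 and 6.56 CPM with the core and at 14.4, 15.7 and 11.7 CPM with VP64. It was at 6.50, 5.19 and 11.1 CPM with D1399Y, against 3.67, 8.35 and 25.8 CPM with dCas9. The dCas9 group alone held both the lowest and the highest library, and the core libraries all lay below the VP64 libraries. The core over VP64 was 0.552-fold (95% interval 0.267 to 1.14, adjusted p = 1.0, edgeR). With the counts of 1 transcript per gene its log2 value was -0.42, against -0.86 with summed counts. All 12 apoptosis genes had a value below 0 for the core over VP64, as did 50.5% of all genes. Their median log2 there was -0.25, and 0 of 12 passed the threshold. Of the 12, 9 were below 0 for the core over dCas9 and 7 for VP64 over dCas9. There were 7 below 0 for D1399Y over dCas9 and 7 for the core over D1399Y.

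**Figure D3:**
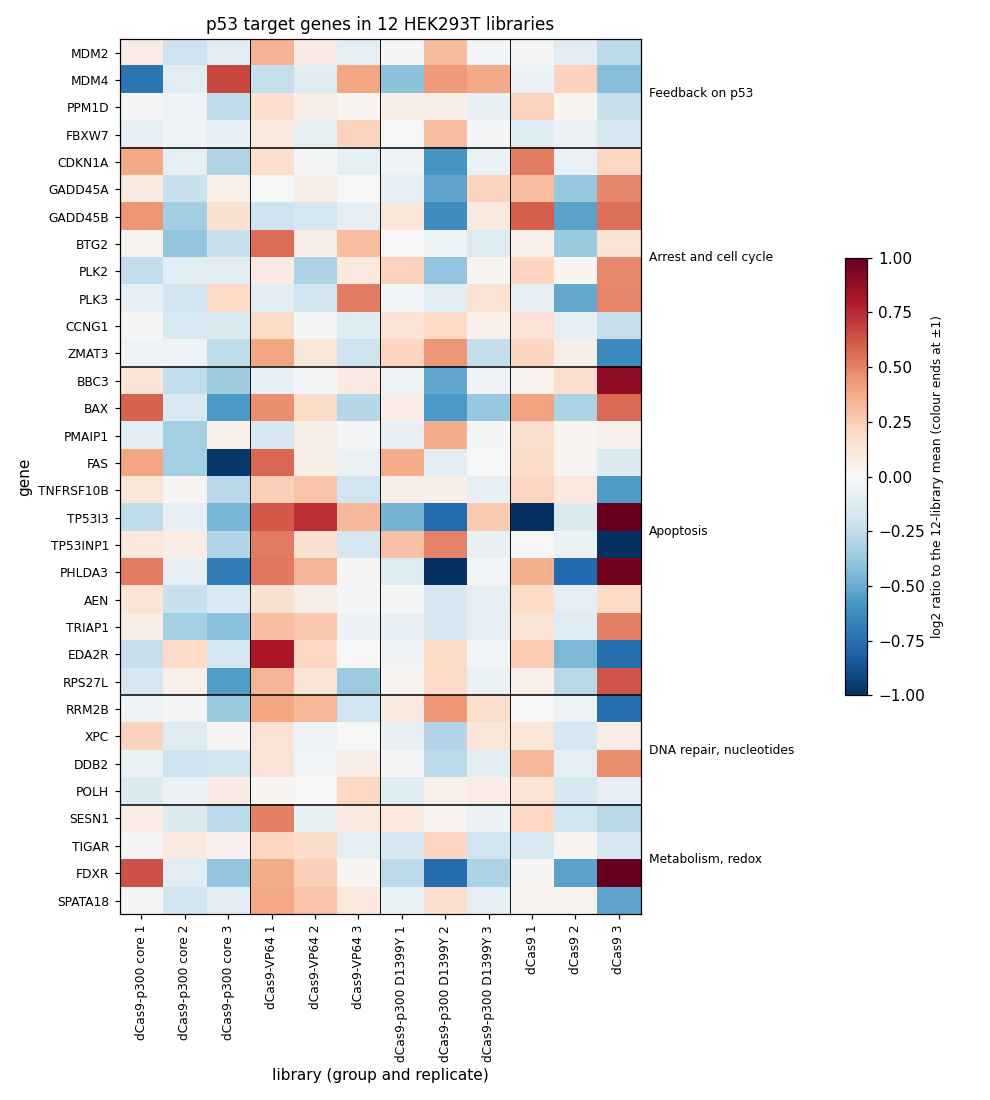
Log2 ratio of each of 32 members (y axis, by role) in each library (x axis) to its mean over the 12 libraries, with colours ending at ±1. dCas9 replicate 3 holds strong colours of both directions, and D1399Y replicate 2 holds the opposite placing for many of the same genes, such as FDXR at -0.77 in D1399Y replicate 2 and 1.11 in dCas9 replicate 3.

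The genes of DNA repair and nucleotide supply included RRM2B, a subunit of ribonucleotide reductase that supplies nucleotides outside of S phase. RRM2B was at 132, 134 and 104 CPM in the core libraries and at 178, 170 and 118 CPM in the VP64 libraries. It was at 144, 183 and 153 CPM in the D1399Y libraries, against 135, 131 and 80.1 CPM in the dCas9 libraries. The D1399Y libraries all lay above the dCas9 libraries and above the core libraries. D1399Y over dCas9 was 1.38-fold (95% interval 1.01 to 1.89; unadjusted p = 0.0417, adjusted p = 0.633, edgeR). The core over D1399Y was 0.773-fold (0.568 to 1.05, adjusted p = 1.0). Without dCas9 replicate 3 the D1399Y value over dCas9 was log2 0.27, against log2 0.47 with it.

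DDB2 encodes the subunit of a damage sensor that finds ultraviolet lesions, and it is the member whose window held the full consensus site shown above. Its levels were 45.7, 41.4 and 41.96 CPM in the core libraries and 52.5, 46.9 and 49.98 CPM in the VP64 libraries. They were 47.1, 39.8 and 44.3 CPM in the D1399Y libraries, against 60.2, 44.6 and 66.1 CPM in the dCas9 libraries. The dCas9 replicates 1 and 3 were the highest of the 12, and dCas9 replicate 2 lay among the other groups. The core over dCas9 was 0.758-fold (95% interval 0.602 to 0.955; unadjusted p = 0.0223, adjusted p = 0.879, edgeR), and D1399Y over dCas9 was 0.771-fold (0.612 to 0.973; unadjusted p = 0.0311, adjusted p = 0.633). For D1399Y over dCas9 the log2 value of DDB2 was -0.37 with all libraries, -0.52 without dCas9 replicate 2, -0.25 without dCas9 replicate 3 and -0.19 with the length and GC offsets. The adjusted p without dCas9 replicate 2 was 0.195, the lowest of any member under any setting. XPC, the recognition factor of nucleotide excision repair, ran from 68.3 to 98.5 CPM. POLH, the polymerase that bypasses ultraviolet lesions, ran from 49.6 to 64.2 CPM. Neither had groups that stood apart. The other members with a site in their window, MDM2, AEN and FAS, had adjusted p of at least 0.633 in every comparison, as did DDB2.

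Among the metabolic genes, FDXR encodes ferredoxin reductase, which passes electrons to mitochondrial cytochromes. Its levels were 84.2, 50.1 and 40.9 CPM in the core libraries and 69.8, 63.7 and 54.6 CPM in the VP64 libraries. They were 44.9, 31.4 and 43.3 CPM in the D1399Y libraries, against 54.3, 37.0 and 117 CPM in the dCas9 libraries. dCas9 replicate 3 stood far above the other libraries of its group, and D1399Y and dCas9 overlapped. D1399Y over dCas9 was 0.583-fold (95% interval 0.343 to 0.994; unadjusted p = 0.0478, adjusted p = 0.633, edgeR). Without dCas9 replicate 3 this was log2 -0.18, against log2 -0.78 with it.

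SPATA18 encodes a protein of mitochondrial quality control. Its levels were 37.5, 33.1 and 35.1 CPM in the core libraries and 49.8, 46.4 and 40.9 CPM in the VP64 libraries. They were 36.3, 43.0 and 35.6 CPM in the D1399Y libraries, against 39.0, 38.9 and 26.2 CPM in the dCas9 libraries. The VP64 libraries all lay above the dCas9 libraries and above the core libraries. VP64 over dCas9 was 1.31-fold (95% interval 1.02 to 1.68; unadjusted p = 0.0390, adjusted p = 0.929, edgeR), and the core over VP64 was 0.771-fold (0.601 to 0.990; unadjusted p = 0.0427, adjusted p = 1.0). The value for VP64 over dCas9, log2 0.39, was log2 0.23 without dCas9 replicate 3 and log2 0.24 with the length and GC offsets. SESN1, a leucine-binding inhibitor of mTOR signalling, was at 123, 106 and 97.0 CPM with the core and at 166, 111 and 124 CPM with VP64. It was at 126, 119 and 112 CPM with D1399Y, against 135, 102 and 96.3 CPM with dCas9. VP64 replicate 1 was the highest, and all groups overlapped. VP64 over dCas9 was 1.20-fold for SESN1 (0.929 to 1.56). TIGAR, a fructose bisphosphatase that diverts glucose to the pentose phosphate pathway, ran from 64.5 to 86.4 CPM.

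The spread between replicates of a group was uneven among the members. The within-group SD of log2 CPM was largest for TP53I3 at 0.73, PHLDA3 at 0.62, FDXR at 0.52, MDM4 at 0.48 and BAX at 0.45. It was smallest for FBXW7 and POLH, at 0.12 each. The median was 0.279 over the 32 members, against 0.264 over all genes tested and 0.235 over 11433 genes within the members' range of mean level.

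In a pair of libraries, the levels of the members went with the base composition of their transcripts. The share of the spread that went with it was not computed. Across the 32 members, the log2 ratio to the 12-library mean had a Pearson r with GC content of -0.83 in D1399Y replicate 2 and 0.71 in dCas9 replicate 3. Over the 14088 genes with a GC value, r was -0.63 in D1399Y replicate 2 and 0.50 in dCas9 replicate 3. These are descriptions across genes of 1 library each, and genes are not independent replicates. GC content and transcript length go together, and r with length was 0.64 in D1399Y replicate 2 and -0.53 in dCas9 replicate 3. In the 16 members of higher GC content (46.5% to 65.1%) the median log2 ratio was -0.46 in D1399Y replicate 2 and 0.48 in dCas9 replicate 3. In the 16 of lower GC content (37.2% to 45.7%) it was 0.21 in D1399Y replicate 2 and -0.25 in dCas9 replicate 3. In core replicate 1 r was 0.48, in dCas9 replicate 2 it was -0.47, and dCas9 replicate 3 was also the library of lowest depth. The 6 members with an unadjusted p under 0.05 in D1399Y over dCas9 all lay nearer to 0 with the length and GC offsets. With offsets the log2 values of BBC3, FDXR, TP53INP1 and RRM2B were -0.22, -0.38, 0.22 and 0.32, against -0.59, -0.78, 0.55 and 0.47 without. Those of CDKN1A and DDB2 were -0.28 and -0.19 with offsets, against -0.45 and -0.37 without. For BBC3 in the core over dCas9 the log2 value was -0.34 with offsets and -0.55 without, and for CCNG1 in the core over D1399Y it was -0.08 with offsets and -0.22 without. The part of GC content in the differences between groups was not tested beyond these values.

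**Figure D4:**
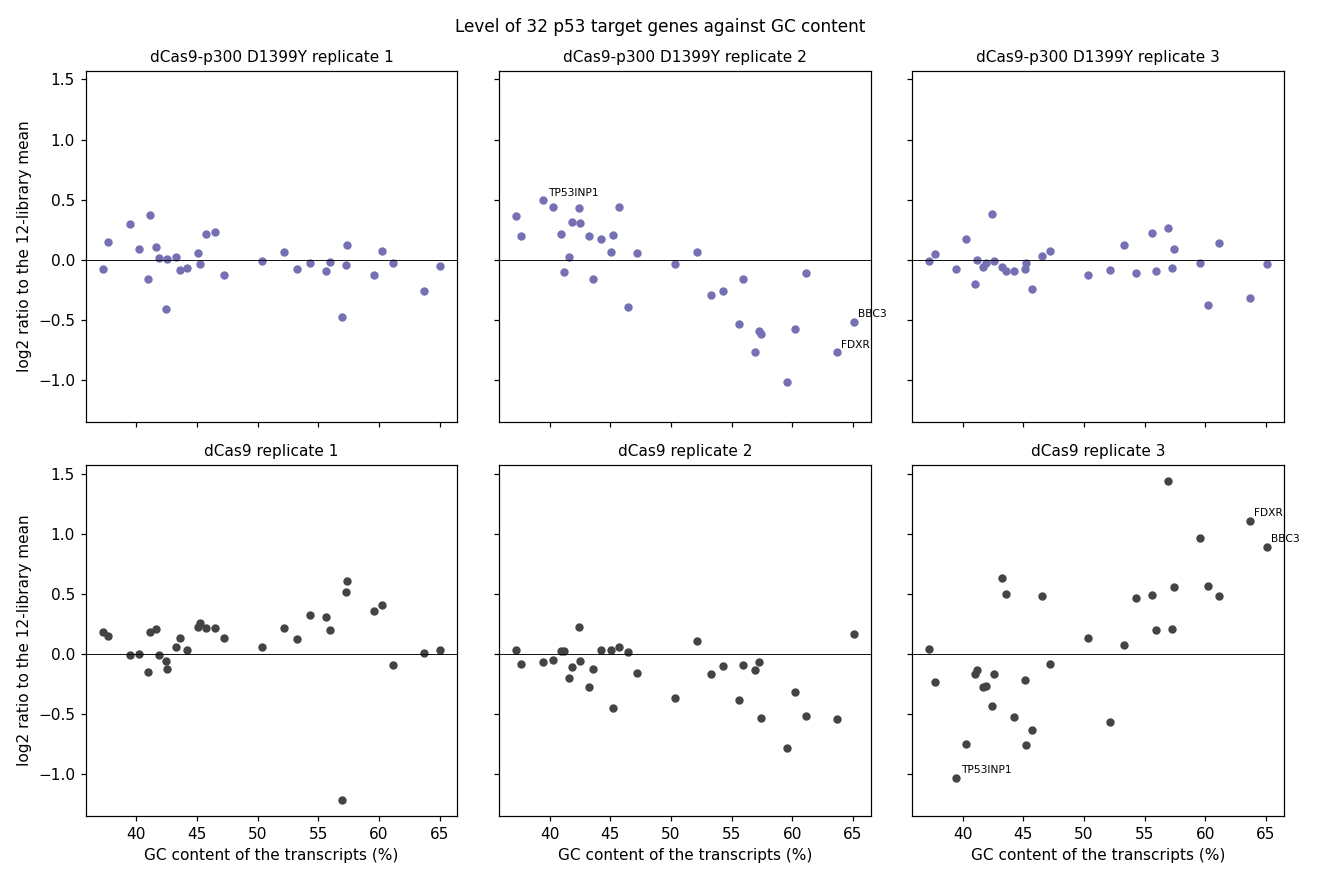
Log2 ratio of 32 members to their 12-library mean (y axis) against the GC content of their transcripts in percent (x axis), in the 3 D1399Y libraries above and the 3 dCas9 libraries below. The points fall with GC content in D1399Y replicate 2 (r -0.83) and climb with it in dCas9 replicate 3 (r 0.71).

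The medians of the members by library were 0.02, -0.12 and -0.20 in the core libraries and 0.23, 0.06 and -0.00 in the VP64 libraries, as log2 ratios to the 12-library mean. They were -0.02, -0.00 and -0.03 in the D1399Y libraries, against 0.14, -0.10 and 0.06 in the dCas9 libraries. VP64 replicate 1 was highest and core replicate 3, from the pool CV42, was lowest. The pooled within-group SD of these medians was 0.102. In the CV41 libraries alone, the median log2 fold change was -0.06 for the core over dCas9, 0.02 for D1399Y over dCas9, -0.09 for the core over D1399Y and -0.15 for the core over VP64. Without core replicate 1 the median for the core over VP64 was -0.26, and without VP64 replicate 1 it was -0.11.

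A list of 24 genes held upstream regulators of p53 and its relatives TP63 and TP73. Of these genes, 23 were tested and 0 passed the threshold in any comparison. Those of smallest p were SIRT1, a deacetylase of p53, KAT5, an acetyltransferase of p53, and the kinases ATM and HIPK2, which phosphorylate p53. SIRT1 was at 132, 175 and 129 CPM in the D1399Y libraries, against 127, 126 and 64.2 CPM in the dCas9 libraries. The VP64 libraries, at 152, 161 and 135 CPM, also all lay above the dCas9 libraries, as for 3.18% of all genes. VP64 over dCas9 was log2 0.49 ± 0.22 for SIRT1 (unadjusted p = 0.0423, adjusted p = 0.929, edgeR). ATM was at 198, 250 and 187 CPM with D1399Y, against 163, 177 and 51.3 CPM with dCas9. For both, dCas9 replicate 3 was far below the other 11 libraries. KAT5 was at 87.7, 65.5 and 87.3 CPM with D1399Y, against 98.9, 92.3 and 123 CPM with dCas9, at log2 -0.38 ± 0.16 (adjusted p = 0.633, edgeR). HIPK2 averaged 296 ± 56.2 CPM with the core and 220 ± 85.5 CPM with dCas9 (SD, n = 3 each), at log2 0.42 ± 0.23 (adjusted p = 0.879).

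A further 33 p53 targets outside the list of 33 were examined, of which 30 were tested and 0 passed in any comparison. LIF, a cytokine, had the smallest p of these, at 6.60, 4.81 and 1.31 CPM in the core libraries, against 10.4, 10.4 and 11.9 CPM in the VP64 libraries. D1399Y libraries held 7.04, 5.19 and 6.63 CPM of LIF, against 10.7, 6.92 and 9.60 CPM in dCas9 libraries. The core libraries lay below all VP64 and all dCas9 libraries. LIF in the core over VP64 was 0.394-fold (95% interval 0.229 to 0.678; unadjusted p = 0.00251, adjusted p = 1.0, edgeR), from between 5 and 47 reads per library. In the core over dCas9 it was 0.476-fold (0.272 to 0.834; unadjusted p = 0.0132, adjusted p = 0.879). SUSD6 averaged 33.5 ± 1.93 CPM with VP64 and 26.2 ± 3.22 CPM with dCas9, and TNFAIP8, an inhibitor of apoptosis, averaged 31.3 ± 3.91 CPM with D1399Y and 40.7 ± 3.26 CPM with dCas9 (SD, n = 3 each). SERTAD1, a regulator of cell cycle transcription, averaged 6.30 ± 0.728 CPM with VP64 and 10.0 ± 2.46 CPM with dCas9. Each of these was at an adjusted p of at least 0.633. The median log2 of the 30 tested was -0.11 for the core over dCas9 and -0.08 for the core over VP64.

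Genes that p53 represses by way of p21 and the DREAM complex were followed as an outcome further down the pathway. All 13 were tested and 0 passed in any comparison. BIRC5, which encodes survivin, averaged 251 ± 16.2 CPM with the core and 313 ± 70.1 CPM with dCas9 (SD, n = 3 each), at log2 -0.32 ± 0.14 (unadjusted p = 0.0442, adjusted p = 0.879, edgeR). Its core libraries held 267, 235 and 251 CPM and overlapped the dCas9 libraries at 293, 255 and 391 CPM, of which replicate 3 stood far above the rest. CKS1B, a cofactor of cyclin-dependent kinases, averaged 97.7 ± 7.84 CPM with the core and 121 ± 29.9 CPM with dCas9. The dCas9 libraries held 112, 95.9 and 154 CPM of CKS1B. CDC25C, the phosphatase that activates CDK1, averaged 69.8 ± 6.68 CPM with the core and 83.9 ± 11.9 CPM with dCas9. CDK1, the mitotic kinase, averaged 234 ± 24.3 CPM with the core and 282 ± 47.1 CPM with D1399Y, at log2 -0.27 ± 0.14 (adjusted p = 1.0). The D1399Y libraries held 246, 335 and 263 CPM of CDK1. The median log2 of the 13 genes was -0.16 for the core over dCas9, -0.09 for VP64 over dCas9 and -0.11 for D1399Y over dCas9. Both the arrest genes that p53 activates and the genes it represses through p21 had a median below 0 in every comparison with dCas9, not in that of the core alone. For the arrest genes it was -0.15 for the core, -0.14 for D1399Y and -0.04 for VP64 over dCas9. In either list 0 members were past the threshold.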

How the data were processed

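Each of the 12 libraries of HEK293T RNA had 1 table, in which the authors deposited raw counts in whole numbers for 40709 RefSeq transcripts. Per the submitters' processing notes, the genome build was hg19 and the tools named were DESeq2 1.6.2, R 3.1.2, Bowtie2, SAMtools and CASAVA. How reads common to several isoforms were counted, whether strand was used and whether duplicates were removed is not given in the sources here. Of the members, 19 had several transcripts, and in 17 of these the transcript totals lay within 1.5-fold of each other, so a summed count may hold a read more than once, which would make counts look more precise than they are.

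Counts were summed per gene (24395 features; 868 transcripts with 1.07% of the counts kept their identifier). The members, the lists and the naming rule were chosen with earlier results of these data known. Total counts ran from 2442960 to 5154627. edgeR 4.0.16 in R 4.3.3 was used with TMM factors, filterByExpr (minimum count 10, minimum total 15) and the quasi-likelihood test, two-sided, in 1 fit of 4 group means over 12 libraries. P-values were adjusted by Benjamini-Hochberg over the 14613 genes tested, with a threshold of 0.05. CPM are relative to TMM-scaled totals. Errors beside log2 values are standard errors. The script was tested on simulated data. GC content and length came from GENCODE transcripts for 96.4% of tested genes and are approximate, so levels were not compared between genes. Values in every library are given for at most 10 members of smallest unadjusted p and at most 8 of highest level. Outside this rule they are also given for MDM4, TP53I3, PLK2 and FBXW7. Up to 4 genes of each other list are named by smallest p in the test of any difference. The result for 1 gene of these lists is not reported here.

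The fits were repeated with upper-quartile or RLE factors, with DESeq2 1.42.0, without a filter, with a filter of 1 CPM in 6 libraries, and with a block for the replicate number. They were also repeated on the 2 groups compared, on CV41 libraries only, with the pool as a covariate, with offsets for length and GC content, and with each library left out in turn. The replicate numbers were taken to pair libraries where every pair of the same number had deviations from the group means correlated above 0.1. By this sign from the data, which the labels do not state, they paired D1399Y with dCas9 libraries (r = 0.24, 0.49 and 0.50) and core with VP64 libraries (r = 0.28, 0.25 and 0.36). Limma-voom (limma 3.58.1) and 1 transcript per gene were added after seeing the data. Coordinates on hg19 are not given, since the sequences used belong to GRCh38.p14.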

Additional observations from a re-analysis of the deposited data

How the results depend on the processing

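Under all 24 alternatives, 0 members passed the threshold in any of the 5 comparisons. The test of any difference, which has no fit on the compared groups alone, also placed 0 members past the threshold under the alternatives run for it. Over all of these the lowest adjusted p of a member was 0.195. For single members, 89 values moved by more than a standard error, most often with length and GC offsets or without dCas9 replicate 3, and 3751 did not. With length and GC offsets the median log2 of the members for D1399Y over dCas9 was -0.11, against 0.01 without, and the cause was not tested. Leaving out each library in turn, the median ran from 0.00 to 0.10 for VP64 over dCas9, from -0.24 (without dCas9 replicate 2) to -0.0497 for the core over dCas9, and from -0.09 to 0.03 for D1399Y over dCas9. It ran from -0.11 to -0.05 for the core over D1399Y and from -0.26 (without core replicate 1) to -0.11 for the core over VP64.

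With the replicate number as a block, 0 members passed, and the median was 0.07 for VP64 over dCas9, -0.13 for the core over dCas9, 0.01 for D1399Y over dCas9, -0.10 for the core over D1399Y and -0.16 for the core over VP64. The block changed no call of a member. Of 18 pairs of libraries with the same number, 14 had deviations correlated above 0.1 (range -0.18 to 0.50), and pairs with different numbers ranged from -0.44 to 0.24. For VP64 against dCas9, the core against dCas9 and the core against D1399Y, not every pair of the same number was above 0.1, and those samples share only a number.

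Over all genes, the number past the threshold ran from 0 to 1 for VP64 over dCas9, 1 to 4 for the core over dCas9, 0 to 1 for D1399Y over dCas9, 1 to 5 for the core over D1399Y, 0 to 6 for the core over VP64 and 1 to 9 for any difference. With 3 libraries a group, members of low count such as TP53I3 (13 to 70 reads) and EDA2R (19 to 88 reads) carry wide intervals.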
